A study of Homo sapiens with 12 samples.

Results

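The hypoxia and glycolysis genes are 35 genes of the 58735 in the deposited expression table, taken by gene name. They comprise 16 glycolytic enzymes, 3 sugar and lactate transporters, 4 regulators and branch enzymes, and 12 other hypoxia targets that do not handle sugar. Their mRNA was measured in TFK1, an established human cholangiocarcinoma (bile duct cancer) cell line that the labels describe as wild type, grown in medium with serum. The 4 groups were the combination of nab-paclitaxel at 1.62 ng/ml and radiation at 6 Gy, nab-paclitaxel alone at 1.62 ng/ml, radiation alone at 6 Gy, and a blank control, with 3 labelled biological replicates each and RNA taken 24 h after treatment. Nab-paclitaxel is an albumin-bound form of paclitaxel, which stabilises microtubules. The series asks how this drug makes such cells more sensitive to radiation. The labels name no low-oxygen treatment, no vehicle and no mock irradiation, and 1 cell line stands for the tumour type.

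Glycolysis breaks glucose down to pyruvate, and lactate dehydrogenase turns pyruvate into lactate, which leaves the cell through a transporter. Many of these enzymes, together with genes for blood vessel growth, acid balance and the turnover of mitochondria, are switched on in low oxygen by the hypoxia-inducible factors (HIF), which bind a short DNA core in their promoters. Cancer cells often run glycolysis at a high rate with oxygen present, under the control of other factors too, so glycolytic genes and hypoxia targets do not always move together.

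Values are FPKM, here fragments scaled to gene length and to a size factor of each library rather than its own total, and libraries held 14840283 to 17992242 fragments. A log2 fold change is on log2(FPKM + 1), which understates the change of low genes, and is given ± SE. A gene rose or fell where limma, fitted on the 13609 genes that averaged 1 FPKM or more, gave a Benjamini-Hochberg adjusted p under 0.05. In bulk RNA, a change in the level per cell and a change in the share of cells with the mRNA cannot be told apart. Of 10 biliary epithelial markers 7 reached a mean of 1 FPKM, against 2 of 9 fibroblast markers and 0 of 10 macrophage markers. The summed biliary epithelial markers were 1387 to 1752 FPKM in the combination, 1233 to 1387 FPKM with nab-paclitaxel, 1141 to 1219 FPKM after radiation and 758 to 954 FPKM in control, so every treated library was above every control library. Of the 7 tested, 4 rose and 1 fell in the combination, 4 rose and 1 fell with nab-paclitaxel, and 2 rose and 0 fell after radiation. Of all tested genes 22.9%, 8.82% and 5.93% were called in the same order. CDH1 fell, and KRT19 and KRT18, at means of 418.7 and 236.8 FPKM, were a large part of the sum. With nab-paclitaxel the call of KRT8 was lost without any 1 of 11 libraries, and those of KRT18 and CDH1 without any 1 of 9. The part of these markers in the changes of the members was not tested. The summed macrophage markers were 1.27 to 1.78 FPKM in the combination, 0.967 to 1.11 FPKM with nab-paclitaxel, 1.49 to 2.25 FPKM after radiation and 0.761 to 1.19 FPKM in control, and C1QA was listed at 0 in all 12 libraries. The summed fibroblast markers were 6.83 to 8.07, 5.77 to 6.81, 8.92 to 9.87 and 6.91 to 8.63 FPKM in the same order of groups, nearly all of it COL1A1 and ACTA2.

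Combination 2, nab-paclitaxel 1 and control 2 stood apart from their groups. Their deviations from the group means correlated across genes, at r = 0.543 for combination 2 and control 2, 0.463 for nab-paclitaxel 1 and control 2, and 0.332 for combination 2 and nab-paclitaxel 1. The glycolytic enzymes were touched by this: combination 2 was the lowest of its group in 13 of the 16, nab-paclitaxel 1 in 9 and control 2 in 13. Of the 11 tested hypoxia targets combination 2 was the lowest of its group in 6 and the highest in 5, nab-paclitaxel 1 in 4 and 7 and control 2 in 5 and 5. Mitochondrially encoded transcripts took 12.6%, 15.9% and 15.2% of fragments in the combination, 14.3%, 11.1% and 12.5% with nab-paclitaxel, 16.3%, 15.0% and 16.0% after radiation and 13.2%, 15.8% and 13.5% in control. Each of the libraries that stood apart had the highest share of its group, and the part of this in the results was not tested. Without the 3 libraries the number of members called was 18 for nab-paclitaxel against control, 13 for radiation against control, 29 for the combination against control, 24 for the combination against radiation and 5 for the combination against nab-paclitaxel, where the remaining 2 libraries of a group were assumed to vary like the others. Calls among all tested genes also rose in this fit, to 1834, 2945, 5038, 4116 and 1292 in the same order. With all libraries they were 1200, 807, 3111, 1055 and 533.

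With all 12 libraries 34 of the 35 members were tested. Relative to control 13 members rose with nab-paclitaxel and 0 fell, where 8.82% of all tested genes were called, 5.41% higher and 3.41% lower. After radiation 4 rose and 2 fell, against 5.93% of all tested genes (2.48% higher, 3.45% lower). In the combination 20 rose and 2 fell relative to control, against 22.9% of all tested genes (12.2% higher, 10.6% lower). Relative to radiation 13 rose and 1 fell in the combination, against 7.75% of all tested genes (4.81% higher, 2.95% lower). Relative to nab-paclitaxel 1 rose and 1 fell in the combination, against 3.92% of all tested genes (1.21% higher, 2.7% lower). The comparisons share libraries and are not independent of each other. Altogether 23 members were called in at least 1 of the 5 comparisons and 12 in 0 of them, among these CA9, which was not tested. The same count over all tested genes was not made, so the 23 are not read as a result about the members. A fit of the 6 nab-paclitaxel and control libraries alone called 0 members and 8 of all tested genes, so these 13 calls rest on the spread shared by the 4 groups. Leaving out 1 library moved some counts by more than 1.5 times: for radiation to 2 without radiation 1, 2 or 3 and to 3 without control 3, for the combination relative to control to 14 without combination 3, for the combination relative to radiation to 6, 6 and 7 without radiation 1, 2 and 3, 7 without combination 1 and 5 without combination 3, and for the combination relative to nab-paclitaxel to 1 without any library other than control 1 or control 2.

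The share of genes called also differed with the level of expression, as a description with no test. 9 members had a mean of at least 50 FPKM, 7 of them glycolytic enzymes. Of the 582 tested genes at that level 16.8% were called higher with nab-paclitaxel than in control and 0.859% lower. After radiation 2.58% of them were called higher and 11.2% lower. Calls of members also depended on the scaling. With nab-paclitaxel the calls of PFKP, TPI1, ENO1 and NDRG1 were lost with TPM scaling, and these together with GAPDH and PGM1 after quantile normalization. In the combination relative to control, HK1, PFKP, GAPDH, ENO1, ENO2, PKM, PFKFB4 and DDIT4 were lost with TPM scaling and PFKP, ENO2 and PKM after quantile normalization. For radiation relative to control, ALDOC, ANGPTL4, ADM and DDIT4 were lost with TPM scaling and DDIT4 after quantile normalization. For the combination relative to radiation, PFKP, ALDOC, ENO1, ADM, NDRG1 and KDM3A were lost under both, GPI and SLC2A3 with TPM scaling and GAPDH after quantile normalization. The call of SLC2A3 between the combination and nab-paclitaxel was lost with TPM scaling. The share of higher genes among all calls moved too: it was 61.3% of 1200 for nab-paclitaxel, but 48.3% after quantile normalization, 49.3% with size factors over the tested genes and 47.5% with voom. For the combination relative to radiation it was 62% of 1055, but 49.7% with TPM scaling, 50.9% with size factors over the tested genes and 41.8% with voom, and for radiation 41.8% of 807, but 56.5% with voom.

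**Figure D1:**
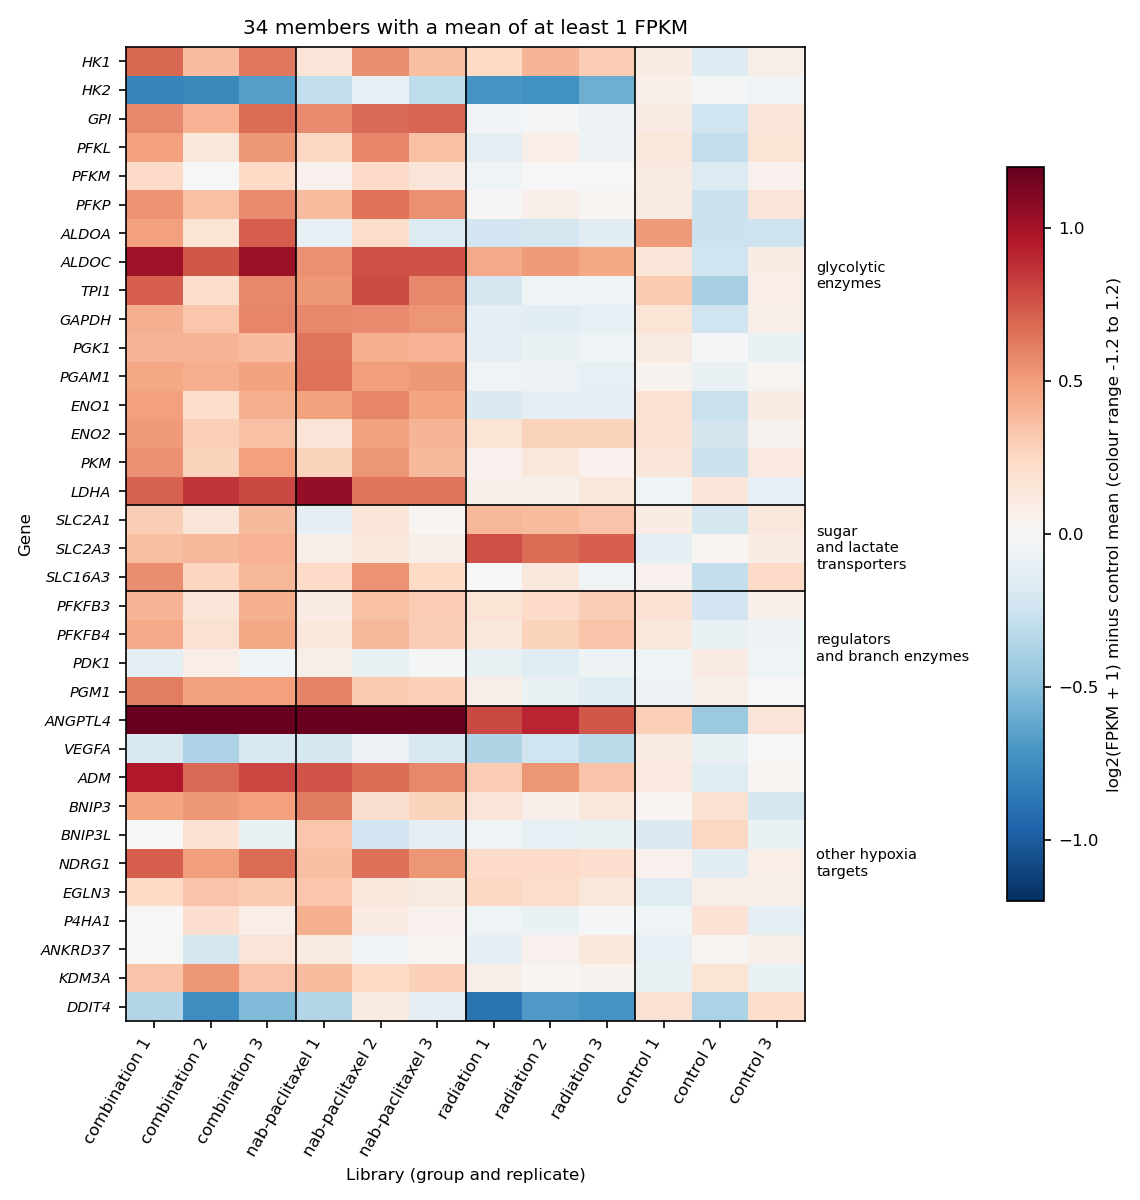
Heat map of the 34 tested members (rows, by list) in the 12 libraries (columns, by group), coloured by log2(FPKM + 1) minus the mean of the 3 control libraries, with a colour range of -1.2 to 1.2 beyond which colours are saturated. Most glycolytic enzymes are red in the drug-treated columns and pale after radiation alone, HK2 and DDIT4 are blue after radiation and in the combination, and ANGPTL4 is red in all treated columns.

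The core of the HIF binding site is read as ACGTG or GCGTG. Promoters of 31 of the 35 members were matched in RefSeq (GRCh38.p14), with 60 start sites, and the 250 bases before a start held either motif on either strand at 36 of them (60%), against 43.2% of 35116 promoters of all genes. At 24 starts (40%) ACGTG was present, against 18.5% of all. The glycolytic enzymes held a motif at 19 of 36 starts (52.8%) and the other hypoxia targets at 9 of 10 (90%), from 16 and 9 matched genes. Several starts belong to 1 gene: HK1 and PFKM had 7 starts each, with a motif at 1 of them. By gene the lists differed less. PGAM1 and PKM among the enzymes and EGLN3 among the targets held no motif at any start. The targets VEGFA, NDRG1 and BNIP3L were not matched. The 250 bases before 1 start each are given for LDHA (chr11:18394313-18394562), PGK1 (chrX:78103998-78104247), ANGPTL4 (chr19:8363905-8364154) and DDIT4 (chr10:72273674-72273923), all on the plus strand. The genes were chosen because the first 3 rose with the drug while DDIT4 fell after radiation. LDHA has 2 starts, and the 1 with the most motif matches is given, so its count of matches is selected. PGK1, ANGPTL4 and DDIT4 have 1 start each. Capitals mark every match of the motifs or their reverse complements, and overlapping matches on both strands read CACGTG.
LDHA: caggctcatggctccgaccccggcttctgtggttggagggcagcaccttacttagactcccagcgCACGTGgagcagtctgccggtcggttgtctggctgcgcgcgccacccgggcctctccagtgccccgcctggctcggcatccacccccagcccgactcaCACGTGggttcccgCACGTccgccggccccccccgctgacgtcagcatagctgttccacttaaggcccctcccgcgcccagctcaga
PGK1: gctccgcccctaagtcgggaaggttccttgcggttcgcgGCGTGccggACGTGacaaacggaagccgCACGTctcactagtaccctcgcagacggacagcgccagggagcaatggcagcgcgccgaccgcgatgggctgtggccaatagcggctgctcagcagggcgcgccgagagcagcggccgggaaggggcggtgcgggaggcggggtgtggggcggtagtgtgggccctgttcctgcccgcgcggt
ANGPTL4: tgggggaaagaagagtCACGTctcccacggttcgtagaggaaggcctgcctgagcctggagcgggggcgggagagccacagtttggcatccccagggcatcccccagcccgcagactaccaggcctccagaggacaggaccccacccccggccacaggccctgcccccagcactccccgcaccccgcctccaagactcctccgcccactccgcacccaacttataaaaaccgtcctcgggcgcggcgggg
DDIT4: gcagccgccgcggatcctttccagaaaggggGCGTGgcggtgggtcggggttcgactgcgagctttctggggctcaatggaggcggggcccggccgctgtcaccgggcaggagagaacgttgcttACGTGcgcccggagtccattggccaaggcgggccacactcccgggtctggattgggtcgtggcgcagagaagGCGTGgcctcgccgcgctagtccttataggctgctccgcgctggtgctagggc
LDHA had 5 matches in 3 stretches, PGK1 and DDIT4 had 3 each and ANGPTL4 had 1. A match describes these letters and shows no binding.

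At glucose uptake and the first step of the pathway, SLC2A3, HK1 and HK2 changed after radiation or in the combination, and 0 of the 4 genes passed with nab-paclitaxel alone. Relative to control 5.93% of all tested genes were called after radiation, 22.9% in the combination and 8.82% with nab-paclitaxel. SLC2A1, the main glucose carrier of most cells, was abundant at 132, 119.6 and 142 FPKM in the combination, 100.2, 119.5 and 109 with nab-paclitaxel, 142, 141 and 137 after radiation and 115, 92.7 and 118 in control. It did not pass in any comparison, and radiation came closest (0.37 ± 0.11, adjusted p = 0.0658). SLC2A3 (ENSG00000059804, hg38 chr12:7919230-7936275, minus strand), a high-affinity glucose carrier, had 6.54, 6.68 and 6.84 FPKM in the combination, 5.14, 5.42 and 5.16 with nab-paclitaxel, 9.0002, 8.32 and 8.62 after radiation and 4.38, 4.98 and 5.22 in control. All radiation libraries were above all control libraries, nab-paclitaxel overlapped control, and the combination lay between radiation and nab-paclitaxel. SLC2A3 rose after radiation (0.72 ± 0.07, adjusted p = 0.000513) and in the combination relative to control (0.39 ± 0.07, adjusted p = 0.00356), both with each library left out in turn. The combination was lower than radiation (-0.33 ± 0.07, adjusted p = 0.0244), a call lost without any 1 of the 6 libraries compared (adjusted p = 0.0543 to 0.112). It was higher than nab-paclitaxel (0.30 ± 0.07, adjusted p = 0.0465), which held only without control 1 or control 2 and was lost without each of the other 10 libraries (adjusted p = 0.0535 to 0.169).

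Hexokinase traps glucose in the cell, and HK1 and HK2 are its main forms in most tumour cells. HK2 (ENSG00000159399, hg38 chr2:74833981-74893359, plus strand), the form best known as a HIF target and as abundant in tumours, had 6.71, 6.85 and 7.51 FPKM in the combination, 9.97, 11.6 and 9.86 with nab-paclitaxel, 7.24, 7.14 and 7.93 after radiation and 13.0, 12.3 and 12.1 in control. Every library that received radiation was below every library that did not. HK2 fell after radiation (-0.67 ± 0.08, adjusted p = 0.00121), in the combination relative to control (-0.75 ± 0.08, adjusted p = 0.00019) and in the combination relative to nab-paclitaxel (-0.51 ± 0.08, adjusted p = 0.00658), and each of these 3 calls held with each library left out in turn. With nab-paclitaxel alone it was -0.23 ± 0.08 and did not pass (adjusted p = 0.0973). HK1, the widely expressed form, had 30.1, 23.9 and 28.8 FPKM in the combination, 20.4, 27.2 and 23.7 with nab-paclitaxel, 21.6, 24.5 and 22.8 after radiation and 19.5, 16.2 and 19.1 in control. It rose in the combination relative to control (0.57 ± 0.12, adjusted p = 0.00697), and the values with nab-paclitaxel (0.36 ± 0.12, adjusted p = 0.088) and after radiation (0.32 ± 0.12, adjusted p = 0.167) did not pass. The ratio of HK2 to HK1 was 0.223, 0.287 and 0.26 in the combination, 0.49, 0.426 and 0.417 with nab-paclitaxel, 0.335, 0.291 and 0.349 after radiation and 0.669, 0.759 and 0.63 in control. This pair was chosen after its values were seen, so the ratio is a description.

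**Figure D2:**
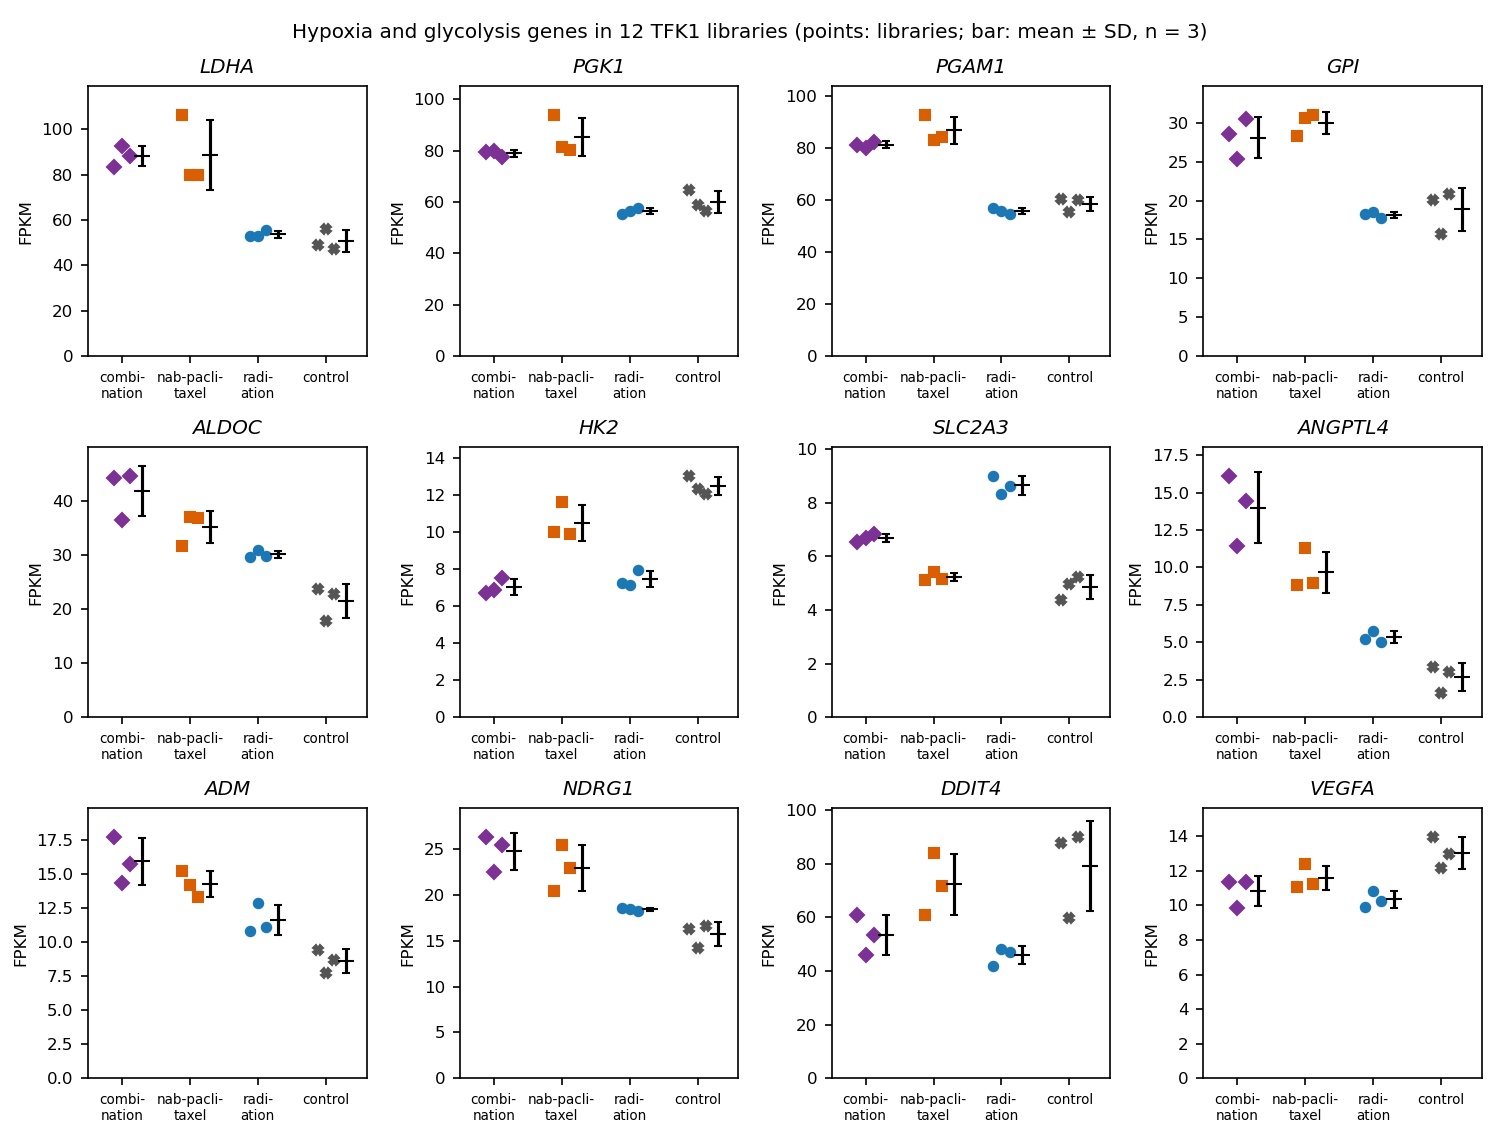
FPKM of 12 members in each library (points, grouped by treatment; each panel starts at 0) with the mean ± SD of the 3 libraries beside them. LDHA, PGK1, PGAM1 and GPI are high in both drug-treated groups, HK2 and DDIT4 are low in both irradiated groups, and SLC2A3 is highest after radiation alone.

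The middle steps of the pathway, from glucose phosphate to the 3-carbon sugars, rose with the drug in part. GPI (ENSG00000105220, hg38 chr19:34359480-34402413, plus strand), which turns glucose phosphate into fructose phosphate, had 28.5, 25.3 and 30.4 FPKM in the combination, 28.3, 30.6 and 31.0 with nab-paclitaxel, 18.3, 18.5 and 17.8 after radiation and 20.1, 15.7 and 20.9 in control. All drug-treated libraries were above all libraries without drug. It rose with nab-paclitaxel (0.65 ± 0.11, adjusted p = 0.00694) and in the combination relative to control (0.55 ± 0.11, adjusted p = 0.00403) and to radiation (0.60 ± 0.11, adjusted p = 0.00937, lost without combination 3 at adjusted p = 0.0553).

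Phosphofructokinase makes the committed step, and its 3 isoform genes were all expressed. The platelet form PFKP, the most abundant of them here, had 40.7, 35.8 and 41.6 FPKM in the combination, 36.5, 44.2 and 41.0 with nab-paclitaxel, 28.0, 28.9 and 28.2 after radiation and 30.0, 23.0 and 31.0 in control. Drug-treated libraries were above the rest, and PFKP rose with nab-paclitaxel (0.53 ± 0.12, adjusted p = 0.0204, lost without nab-paclitaxel 2 at adjusted p = 0.0643) and in the combination relative to control (0.48 ± 0.12, adjusted p = 0.0117, lost without combination 3 at adjusted p = 0.0508). Relative to radiation it was 0.45 ± 0.12 (adjusted p = 0.0368), a call lost without any 1 of the radiation libraries, nab-paclitaxel 3, combination 1 or combination 3 (adjusted p = 0.0512 to 0.137). The liver form PFKL ranged over 7.45 to 14.6 FPKM and the muscle form PFKM over 14.5 to 19.5 FPKM, and neither passed in any comparison. With nab-paclitaxel PFKL was 0.39 ± 0.15 (adjusted p = 0.113).

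PFKFB3 and PFKFB4 make the sugar diphosphate that activates phosphofructokinase. PFKFB3 ranged over 8.73 to 14.3 FPKM and did not pass. PFKFB4 had 3.92, 3.09 and 3.95 FPKM in the combination, 2.92, 3.70 and 3.403 with nab-paclitaxel, 2.95, 3.34 and 3.54 after radiation and 2.96, 2.40 and 2.45 in control. It rose in the combination relative to control (0.37 ± 0.11, adjusted p = 0.0326). This call was lost with the replicate number as a block (adjusted p = 0.0602) and without control 2, control 3, combination 1 or combination 3 (adjusted p = 0.0773 to 0.118).

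Aldolase splits the sugar, and here ALDOC, the form best known from brain, was the aldolase gene with high values. ALDOC had 44.3, 36.5 and 44.6 FPKM in the combination, 31.7, 37.1 and 36.9 with nab-paclitaxel, 29.7, 30.9 and 29.8 after radiation and 23.8, 17.9 and 22.7 in control. The groups were ordered without overlap as control, radiation and then both drug-treated groups, except that nab-paclitaxel and the combination overlapped. ALDOC rose with nab-paclitaxel (0.69 ± 0.12, adjusted p = 0.00755) and in the combination relative to control (0.93 ± 0.12, adjusted p = 0.000368), with each library left out in turn. It also rose after radiation (0.48 ± 0.12, adjusted p = 0.0343), which was lost without control 2, control 3, any 1 radiation library or combination 3 (adjusted p = 0.051 to 0.128). In the combination relative to radiation it was 0.45 ± 0.12 (adjusted p = 0.0395), lost without any 1 radiation library, nab-paclitaxel 2 or 3, or combination 1 or 3 (adjusted p = 0.0507 to 0.147).

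ALDOA, the form most tissues use, ranged over only 0.881 to 2.72 FPKM, from 1120 fragments in all 12 libraries, and did not pass. In GENCODE 29, 93.8% of its coding bases and 42.3% of all its exon bases are shared on the same strand with AC093512.2, which averaged 0.297 FPKM, so the way shared fragments were assigned, which is not given in the sources used here, can set this value. The ALDOA level is therefore uncertain.

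TPI1, which interconverts the 3-carbon sugars, had 129.9, 91.1 and 117 FPKM in the combination, 114, 136 and 118 with nab-paclitaxel, 68.1, 76.0 and 76.0 after radiation and 98.3, 59.6 and 82.9 in control. All nab-paclitaxel libraries were above all control libraries. TPI1 rose with nab-paclitaxel (0.63 ± 0.17, adjusted p = 0.0467), but the call held only without control 1 or combination 2 and was lost without each of the other 10 libraries (adjusted p = 0.0529 to 0.122). In the combination relative to control it was 0.50 ± 0.17 and did not pass (adjusted p = 0.0583).

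Of the 7 genes of the lower steps, which yield ATP and NADH and end in lactate, 5 rose with nab-paclitaxel and ENO2 and PKM did not pass. Of all tested genes 5.41% rose with nab-paclitaxel. Of those averaging at least 50 FPKM, as all of these genes but ENO2 did, 16.8% rose. GAPDH, often used as a reference gene, had 423, 399 and 475 FPKM in the combination, 471, 467 and 455 with nab-paclitaxel, 291, 286 and 294 after radiation and 354, 267 and 331 in control. It rose with nab-paclitaxel (0.56 ± 0.11, adjusted p = 0.0125), in the combination relative to control (0.45 ± 0.11, adjusted p = 0.0113, lost without combination 3 at adjusted p = 0.0558) and relative to radiation (0.57 ± 0.11, adjusted p = 0.0112, lost without radiation 1, radiation 2 or combination 3, adjusted p = 0.0532 to 0.0657). Both drug-treated groups lay above both groups without drug in all 12 libraries.

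PGK1 (ENSG00000102144, hg38 chrX:77910739-78129296, plus strand), the first ATP-forming enzyme of the pathway, had 79.5, 79.9 and 77.5 FPKM in the combination, 93.9, 81.5 and 80.4 with nab-paclitaxel, 55.2, 56.6 and 57.7 after radiation and 64.7, 58.9 and 56.3 in control. PGAM1, which moves the phosphate along the 3-carbon acid, had 81.4, 79.9 and 82.6 FPKM in the combination, 92.8, 83.3 and 84.4 with nab-paclitaxel, 57.1, 56.0 and 54.9 after radiation and 60.5, 55.6 and 59.996 in control. In both genes every drug-treated library was above every library without drug, and radiation against control did not pass (adjusted p = 0.663 and adjusted p = 0.686). PGK1 rose with nab-paclitaxel by 0.50 ± 0.08 (adjusted p = 0.00689) and in the combination by 0.39 ± 0.08 relative to control (adjusted p = 0.00603) and 0.48 ± 0.08 relative to radiation (adjusted p = 0.00782). The same 3 values of PGAM1 were 0.56 ± 0.07 (adjusted p = 0.00209), 0.46 ± 0.07 (adjusted p = 0.00114) and 0.53 ± 0.07 (adjusted p = 0.00275). All 6 calls held with each library left out in turn.

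Enolase forms phosphoenolpyruvate. ENO1, the general form, had 344, 281 and 331 FPKM in the combination, 340.1, 366 and 338 with nab-paclitaxel, 216, 226 and 224 after radiation and 274, 202 and 261 in control. ENO2, the form best known from neurons and a HIF target, had 18.5, 15.7 and 16.5 FPKM in the combination, 14.2, 18.1 and 17.2 with nab-paclitaxel, 14.4, 15.6 and 15.5 after radiation and 14.5, 10.8 and 13.1 in control. ENO1 rose with nab-paclitaxel (0.51 ± 0.12, adjusted p = 0.0246, lost without nab-paclitaxel 2 at adjusted p = 0.07). In the combination it was 0.38 ± 0.12 relative to control (adjusted p = 0.0375), lost without control 2, control 3, any 1 radiation library, combination 1 or combination 3 (adjusted p = 0.0508 to 0.127), and 0.52 ± 0.12 relative to radiation (adjusted p = 0.0254), lost without any 1 radiation library, combination 1 or combination 3 (adjusted p = 0.0824 to 0.103). ENO2 passed only in the combination relative to control (0.38 ± 0.12, adjusted p = 0.036). That call was lost with the replicate number as a block (adjusted p = 0.0653) and without control 2, control 3, any 1 radiation library, combination 1 or combination 3 (adjusted p = 0.0514 to 0.128).

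PKM, the pyruvate kinase of most growing cells, had 153, 126 and 146 FPKM in the combination, 126, 150.2 and 136 with nab-paclitaxel, 108, 114 and 108 after radiation and 115, 86.6 and 113 in control. It rose in the combination relative to control (0.44 ± 0.12, adjusted p = 0.0209), lost without combination 1 or 3 (adjusted p = 0.074 to 0.08), while nab-paclitaxel alone did not pass (0.40 ± 0.12, adjusted p = 0.0593). In ENO1, ENO2 and PKM the combination libraries were all above the control libraries. The gene-level table does not separate the splice forms of PKM.

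LDHA (ENSG00000134333, hg38 chr11:18394388-18408425, plus strand), which makes lactate from pyruvate, is a HIF target and the last enzyme of the pathway in cells that ferment glucose. It had 83.5, 92.6 and 88.4 FPKM in the combination, 106, 79.7 and 79.8 with nab-paclitaxel, 53.0, 52.8 and 55.6 after radiation and 48.9, 56.2 and 47.1 in control. Every drug-treated library was above every library without drug. LDHA rose with nab-paclitaxel (0.78 ± 0.11, adjusted p = 0.00456) and in the combination relative to control (0.79 ± 0.11, adjusted p = 0.000818) and to radiation (0.70 ± 0.11, adjusted p = 0.00592), each with any 1 library left out. Nab-paclitaxel 1 stood at 106 FPKM, well above its group, and without it the drug effect was 0.65 on the log2 scale. With all libraries its rise with nab-paclitaxel was the largest among the 23 members of sugar use, and without nab-paclitaxel 1 it was below those of ALDOC, GPI and TPI1. SLC16A3, which exports lactate, ranged over 17.6 to 32.4 FPKM and did not pass (0.41 ± 0.14 in the combination relative to control, adjusted p = 0.0517).

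At the branches of the pathway, PGM1, which links glucose phosphate to glycogen, had 19.0, 17.2 and 17.4 FPKM in the combination, 18.7, 15.2 and 14.9 with nab-paclitaxel, 12.7, 11.3 and 10.9 after radiation and 11.6, 12.6 and 12.03 in control. It rose in the combination relative to control (0.53 ± 0.10, adjusted p = 0.00303) and to radiation (0.58 ± 0.10, adjusted p = 0.00667), with each library left out in turn. With nab-paclitaxel it rose by 0.40 ± 0.10 (adjusted p = 0.0307), lost without control 1, control 3, radiation 2 or nab-paclitaxel 1 (adjusted p = 0.0522 to 0.0779). PDK1, a kinase that inhibits pyruvate dehydrogenase and a standard HIF target, ranged over 1.198 to 1.61 FPKM and did not pass.

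**Figure D3:**
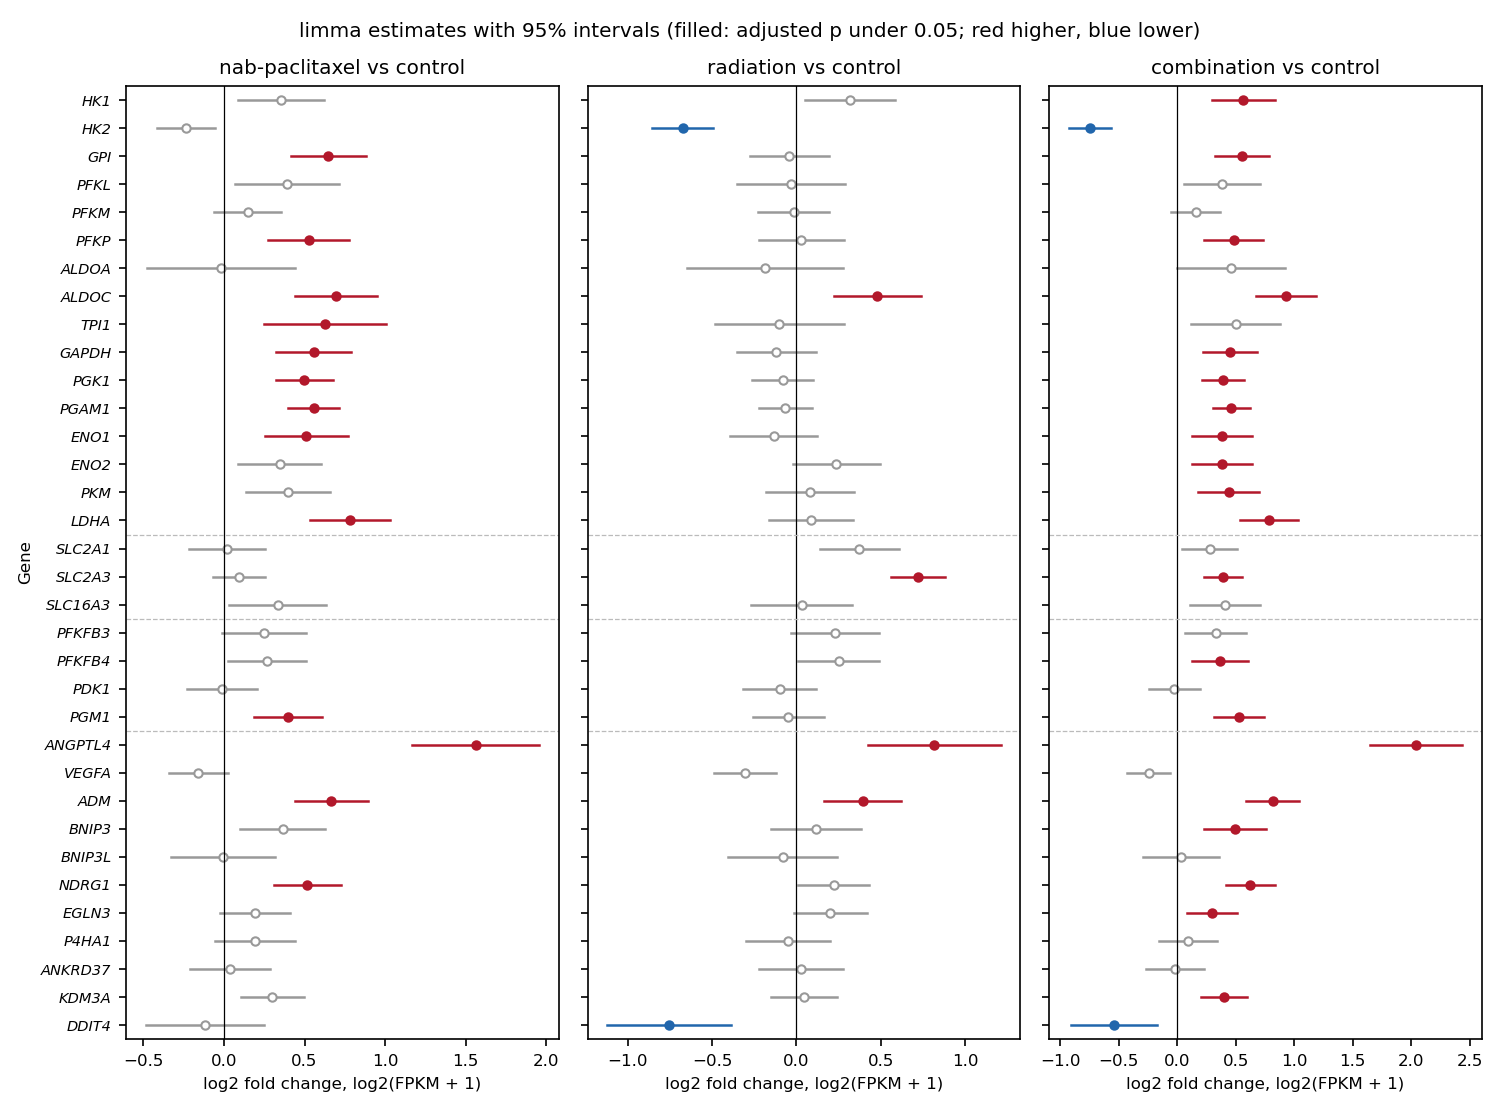
limma log2 fold changes on log2(FPKM + 1) with 95% confidence intervals for the 34 tested members (rows) against control, for nab-paclitaxel, radiation and the combination (panels, each with its own horizontal range); filled points passed an adjusted p under 0.05, red higher and blue lower. With nab-paclitaxel 13 filled points all lie right of 0, with radiation 4 lie right and 2 left, and with the combination 20 lie right and 2 left.

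The hypoxia targets outside sugar use were mixed: of the 11 tested 6 rose in at least 1 comparison, DDIT4 fell and 4 did not pass. BNIP3, EGLN3 and KDM3A passed only in comparisons of the combination. Relative to control 22.9% of all tested genes were called in the combination, 8.82% with nab-paclitaxel and 5.93% after radiation. No share of all tested genes was computed for calls in at least 1 comparison. ANGPTL4 (ENSG00000167772, hg38 chr19:8363289-8374373, plus strand), a secreted inhibitor of lipoprotein lipase, had 16.1, 11.4 and 14.4 FPKM in the combination, 8.83, 11.3 and 8.95 with nab-paclitaxel, 5.23, 5.79 and 5.03 after radiation and 3.39, 1.65 and 3.01 in control. The 4 groups followed each other from control through radiation and nab-paclitaxel to the combination, and no library crossed into the next group. ANGPTL4 rose after radiation (0.82 ± 0.18, adjusted p = 0.0216), with nab-paclitaxel (1.56 ± 0.18, adjusted p = 0.00127) and in the combination (2.04 ± 0.18, adjusted p = 5.76e-05) relative to control, and in the combination relative to radiation (1.23 ± 0.18, adjusted p = 0.00407). The rise after radiation was lost without any 1 radiation library (adjusted p = 0.0648 to 0.0965), and the other 3 held. The combination and nab-paclitaxel did not differ past the threshold (0.48 ± 0.18, adjusted p = 0.187).

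ADM (ENSG00000148926, hg38 chr11:10304680-10307397, plus strand), which encodes the vessel-widening peptide adrenomedullin, had 17.7, 14.3 and 15.7 FPKM in the combination, 15.2, 14.2 and 13.3 with nab-paclitaxel, 10.8, 12.8 and 11.1 after radiation and 9.42, 7.69 and 8.71 in control. Each treated group lay above control. ADM rose with nab-paclitaxel (0.67 ± 0.10, adjusted p = 0.00589) and in the combination relative to control (0.81 ± 0.10, adjusted p = 0.000381), with each library left out in turn. Radiation gave 0.39 ± 0.10 (adjusted p = 0.0483), which held without nab-paclitaxel 1, combination 1 or combination 2 and was lost without each of the other 9 libraries (adjusted p = 0.0579 to 0.196). The combination relative to radiation gave 0.42 ± 0.10 (adjusted p = 0.0322), lost without any 1 radiation library, combination 1 or combination 3 (adjusted p = 0.0541 to 0.134).

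NDRG1, a stress-induced protein linked to differentiation, had 26.3, 22.5 and 25.4 FPKM in the combination, 20.4, 25.4 and 23.0 with nab-paclitaxel, 18.5, 18.5 and 18.2 after radiation and 16.3, 14.2 and 16.6 in control. Radiation libraries lay above control and below nab-paclitaxel. NDRG1 rose with nab-paclitaxel (0.52 ± 0.10, adjusted p = 0.0113) and in the combination relative to control (0.63 ± 0.10, adjusted p = 0.00113), with each library left out in turn. Relative to radiation the combination gave 0.41 ± 0.10 (adjusted p = 0.0292), lost without any 1 radiation library, combination 1 or combination 3 (adjusted p = 0.0939 to 0.113).

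BNIP3, a receptor for the removal of mitochondria, had 8.98, 9.31 and 9.08 FPKM in the combination, 10.1, 7.19 and 7.71 with nab-paclitaxel, 6.99, 6.47 and 6.90 after radiation and 6.28, 7.15 and 5.23 in control. It rose in the combination relative to control (0.50 ± 0.12, adjusted p = 0.0129, lost without control 3 at adjusted p = 0.0506), with all combination libraries above all control libraries. Its relative BNIP3L ranged over 20.9 to 31.4 FPKM and did not pass. KDM3A, a histone demethylase that HIF induces, had 8.37, 9.65 and 8.38 FPKM in the combination, 8.63, 7.75 and 8.04 with nab-paclitaxel, 6.81, 6.54 and 6.63 after radiation and 5.97, 7.32 and 6.04 in control. It rose in the combination relative to control (0.40 ± 0.09, adjusted p = 0.00837) and to radiation (0.35 ± 0.09, adjusted p = 0.0358), the first with each library left out in turn and the second lost without any 1 radiation or combination library or nab-paclitaxel 3 (adjusted p = 0.0502 to 0.121).

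EGLN3, an oxygen-sensing enzyme that marks HIF for destruction and is itself induced by it, had 2.06, 2.29 and 2.22 FPKM in the combination, 2.25, 1.85 and 1.797 with nab-paclitaxel, 2.08, 2.01 and 1.85 after radiation and 1.35, 1.73 and 1.72 in control. All combination libraries were above all control libraries, at 0.30 ± 0.10 (adjusted p = 0.0484). The call held without control 2 or nab-paclitaxel 1, was lost without each of the other 10 libraries (adjusted p = 0.0574 to 0.153) and was lost with the replicate number as a block (adjusted p = 0.0861).

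DDIT4 (ENSG00000168209, hg38 chr10:72273920-72276036, plus strand), an inhibitor of the growth kinase mTOR that also responds to DNA damage and other stress, had 60.7, 46.0 and 53.6 FPKM in the combination, 60.9, 84.0 and 71.8 with nab-paclitaxel, 41.9, 48.3 and 47.2 after radiation and 87.7, 59.7 and 89.9 in control. Radiation libraries were below all control libraries, nab-paclitaxel overlapped control, and the combination overlapped control through combination 1 and control 2. DDIT4 fell after radiation (-0.75 ± 0.17, adjusted p = 0.0225), lost without control 1, control 3 or any 1 radiation library (adjusted p = 0.0685 to 0.0985). It fell in the combination relative to control (-0.54 ± 0.17, adjusted p = 0.0372), lost with the replicate number as a block (adjusted p = 0.0612) and without control 1, control 3, radiation 2, radiation 3, nab-paclitaxel 3, combination 2 or combination 3 (adjusted p = 0.0512 to 0.125). DDIT4-AS1, annotated on the other strand over 41.2% of the DDIT4 exon bases, was listed at 0.

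VEGFA, the main growth factor of blood vessels and a textbook HIF target, had 11.3, 9.84 and 11.4 FPKM in the combination, 11.1, 12.4 and 11.2 with nab-paclitaxel, 9.91, 10.8 and 10.3 after radiation and 14.0, 12.1 and 13.0 in control. It did not pass in any comparison, and all 3 values against control were below 0 (-0.24 ± 0.08, adjusted p = 0.0575 in the combination; -0.16 ± 0.08, adjusted p = 0.257 with nab-paclitaxel; -0.30 ± 0.08, adjusted p = 0.0564 after radiation). P4HA1, a collagen-modifying enzyme, ranged over 35.4 to 52.2 FPKM and ANKRD37 over 1.39 to 2.08 FPKM, and neither passed. CA9, the membrane carbonic anhydrase that is strongly induced in hypoxic tumours, was at 0 to 0.176 FPKM with 13 fragments in the 12 libraries together, below the level tested.

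With nab-paclitaxel 9 of 16 glycolytic enzymes and 3 of 11 tested hypoxia targets rose over control, with median log2 fold changes of 0.51 and 0.19, where the median of all tested genes was 0.04. In the combination relative to control 11 glycolytic enzymes rose and 1 fell, and 6 hypoxia targets rose and 1 fell, with medians of 0.45 and 0.30. Relative to radiation the combination gave 8 and 4 rises and medians of 0.47 and 0.21. Radiation alone gave 1 rise and 1 fall among the glycolytic enzymes and 2 rises and 1 fall among the hypoxia targets, with medians of -0.04 and 0.05. Of all tested genes 5.41% rose with nab-paclitaxel, 12.2% in the combination relative to control, 4.81% relative to radiation and 2.48% after radiation alone. In the same order 3.41%, 10.6%, 2.95% and 3.45% fell. Of the 582 tested genes averaging 50 FPKM or more, 7 of them glycolytic enzymes, 16.8%, 19.2%, 15.5% and 2.58% rose. The shares that fell there were 0.859%, 12.7%, 2.23% and 11.2%.

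The difference of the 2 medians was 0.31 for nab-paclitaxel against control, and it depended on the scaling and on single control libraries: it was 0.051 after quantile normalization and 0.11 without control 2. For the combination relative to control it was 0.15, but 0.021 with a pseudocount of 0.1, 0.031 after quantile normalization, 0.0082 with voom and -0.0063 without control 2. For radiation relative to control it was -0.08, but 0.0057 after quantile normalization, 0.048 without control 1, 0.0070 without control 3 and -0.23 without control 2. The spread of that difference between libraries of 1 group was 0.163 (SD). It was not tested, since the lists were chosen with results of these data known. By library, the glycolytic median relative to the control mean was 0.50, 0.31 and 0.54 in the combination, 0.43, 0.56 and 0.45 with nab-paclitaxel, -0.04, -0.01 and -0.05 after radiation and 0.12, -0.24 and 0.07 in control. The median of the other hypoxia targets was 0.24, 0.35 and 0.31 in the combination, 0.37, 0.14 and 0.11 with nab-paclitaxel, 0.07, 0.05 and 0.13 after radiation and 0.02, 0.03 and 0.02 in control.

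**Figure D4:**
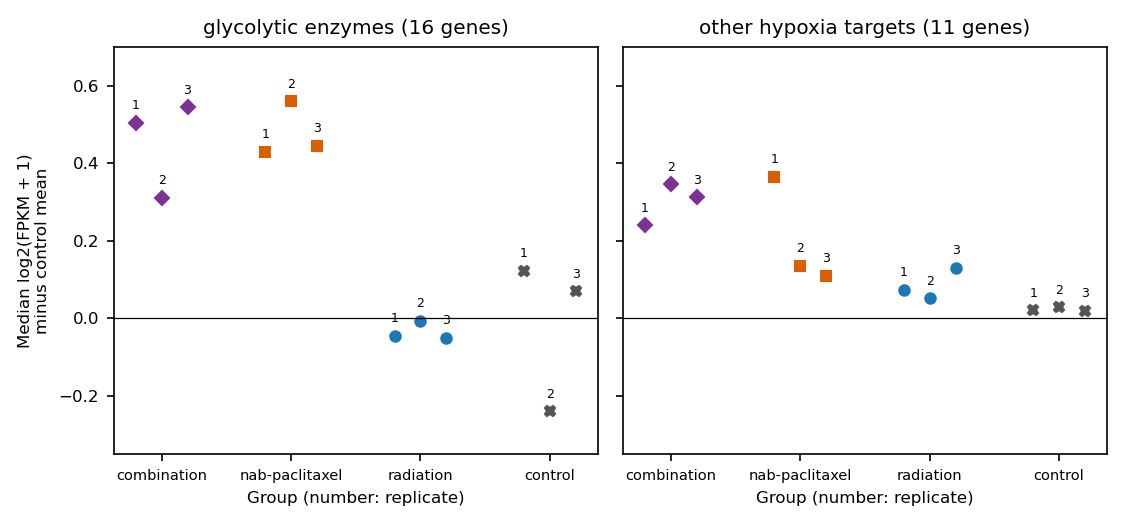
Median over genes of log2(FPKM + 1) minus the control mean (vertical axis) in each library (points, numbered by replicate), for the 16 glycolytic enzymes and the 11 tested hypoxia targets outside sugar use. The glycolytic median is 0.31 to 0.56 in the drug-treated libraries and -0.24 to 0.12 in the others, while that of the hypoxia targets is 0.11 to 0.37 and 0.02 to 0.13.

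Whether the drug acted differently in irradiated cells was tested by the interaction, the drug effect with radiation minus the drug effect without it. 0 members and 0 of all tested genes passed in limma, and limma's voom on recovered fragments also gave 0. At an unadjusted p under 0.05 there were 2 members, with either method, and 443 of all tested genes (3.26%) in the limma test on log2(FPKM + 1). These members were SLC2A3 (-0.42 ± 0.10, adjusted p = 0.989) and ALDOA (0.66 ± 0.30). A value that misses the threshold does not show that the effects were equal. Over the 34 tested members the drug effect without radiation was above 0 in 28 and with radiation in 30, with 25 above 0 in both, and the effects correlated across genes at r = 0.824. Of the 13609 tested genes 7628 and 7439 were above 0 in the same order. These 2 effects share no library, genes are not independent replicates, and the correlation is a description. ANGPTL4 lay farthest out, and the correlation was not computed without it or over all tested genes.

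**Figure D5:**
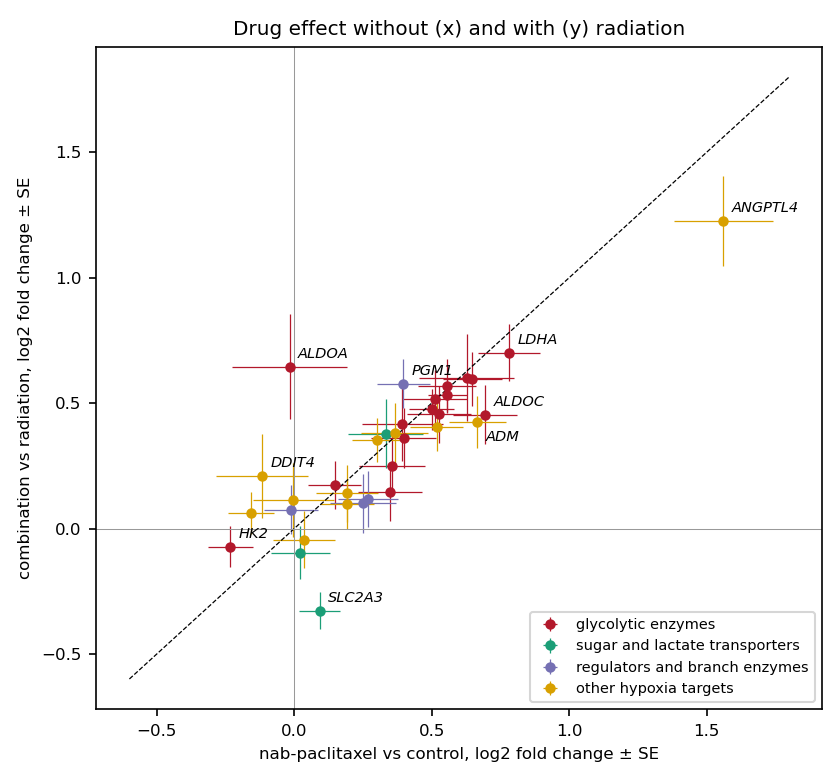
log2 fold change ± SE of the 34 tested members for nab-paclitaxel against control (horizontal) and for the combination against radiation (vertical), coloured by list; the dashed line marks equal effects. Most points lie near the line, with ANGPTL4 farthest out, ALDOA above it and SLC2A3 below it.

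Outside the members, the enzymes that take pyruvate into the mitochondrion and round the tricarboxylic acid cycle rose in part with the drug. Of 25 such genes 15 rose and 1 fell in the combination relative to control, 10 rose and 0 fell with nab-paclitaxel, with a median of 0.35, and 0 rose and 1 fell after radiation. Among all tested genes 12.2% were called higher and 10.6% lower in the combination, 5.41% and 3.41% with nab-paclitaxel, and 2.48% and 3.45% after radiation. Among those with a mean of at least 10 FPKM 18.2% were called higher in the combination and 10.8% with nab-paclitaxel. SUCLG2, a subunit of succinate-CoA ligase, had 15.3, 16.5 and 14.6 FPKM in the combination, 17.0, 14.4 and 16.4 with nab-paclitaxel, 8.08, 8.14 and 7.94 after radiation and 9.26, 10.4 and 9.16 in control. MDH2, the mitochondrial malate dehydrogenase, had 85.5, 76.4 and 83.8 FPKM in the combination, 97.5, 80.8 and 79.4 with nab-paclitaxel, 64.3, 66.3 and 64.2 after radiation and 62.6, 58.3 and 62.5 in control, and IDH2, the mitochondrial isocitrate dehydrogenase that uses NADP, had 19.8, 16.6 and 18.9 FPKM in the combination, 19.2, 21.2 and 18.3 with nab-paclitaxel, 11.3, 12.5 and 12.02 after radiation and 14.1, 10.8 and 14.4 in control. With nab-paclitaxel they rose by 0.67 ± 0.08 (adjusted p = 0.00191), 0.48 ± 0.09 (adjusted p = 0.0118) and 0.55 ± 0.11 (adjusted p = 0.0155). The IDH2 call was lost without nab-paclitaxel 2 (adjusted p = 0.0506), while those of SUCLG2 and MDH2 held with each library left out in turn. Most of the other calls with nab-paclitaxel were less firm. PDHB and SDHD were lost without any 1 of 10 libraries, and IDH3B and SDHA without any 1 of 9. MPC2 was lost without any 1 of 7 libraries, OGDH without any 1 of 3 and SDHB without control 3.

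Among 12 regulators of HIF, 10 were tested and 1 rose with nab-paclitaxel: CITED2, which competes with HIF for its coactivators, had 46.2, 41.9 and 44.8 FPKM in the combination, 45.6, 43.4 and 38.3 with nab-paclitaxel, 46.4, 44.7 and 44.5 after radiation and 33.2, 32.4 and 33.5 in control (0.35 ± 0.08, adjusted p = 0.0225, lost without control 1, control 3 or nab-paclitaxel 2). It also rose after radiation (0.44 ± 0.08, adjusted p = 0.0077) and in the combination (0.41 ± 0.08, adjusted p = 0.00384). After radiation it was the 1 regulator called, and in the combination 2 rose and 1 fell, EPAS1 and CREBBP being named here after their values were seen. EPAS1, the HIF-2 alpha subunit, had 20.7, 20.9 and 21.1 FPKM in the combination, 15.8, 19.9 and 19.5 with nab-paclitaxel, 16.3, 18.1 and 17.8 after radiation and 15.4, 12.1 and 15.9 in control and rose in the combination (0.51 ± 0.11, adjusted p = 0.0079), also with any 1 library left out. CREBBP, a coactivator of HIF and of many other factors, had 5.62, 5.77 and 6.79 FPKM in the combination, 4.46, 6.82 and 7.42 with nab-paclitaxel, 8.04, 7.77 and 7.44 after radiation and 9.23, 7.39 and 10.0 in control and fell in the combination (-0.48 ± 0.15, adjusted p = 0.0436), a call that was lost without any 1 of 8 libraries. Of 26 further hypoxia targets 19 were tested, of which 5 rose and 1 fell in the combination, 2 rose and 1 fell with nab-paclitaxel, and 0 were called after radiation. Beside the counts of both lists stand the shares of all tested genes called relative to control. These were 22.9% in the combination, 8.82% with nab-paclitaxel and 5.93% after radiation, so the counts are not read as a response of these lists. BHLHE40, a transcriptional repressor, had 27.8, 26.4 and 27.9 FPKM in the combination, 23.7, 25.3 and 25.4 with nab-paclitaxel, 15.0, 15.8 and 16.6 after radiation and 15.7, 13.1 and 15.5 in control (0.71 ± 0.08, adjusted p = 0.00133). FUT11, a fucosyltransferase, also rose with nab-paclitaxel (0.43 ± 0.10, adjusted p = 0.0243), and the secreted glycoprotein gene STC2 fell (-0.44 ± 0.11, adjusted p = 0.0295). The FUT11 call was lost without control 2, control 3 or nab-paclitaxel 2, and the STC2 call without any 1 of 5 libraries.

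Of 30 minor isoforms and relatives of the glycolytic genes 16 were tested. In the combination 6 rose and 2 fell, with nab-paclitaxel 1 rose and 0 fell, and after radiation 2 rose and 0 fell, beside 12.2%, 5.41% and 2.48% of all tested genes called higher. BPGM, which makes bisphosphoglycerate, rose with nab-paclitaxel (0.55 ± 0.12, adjusted p = 0.0236, lost without control 1, control 3 or nab-paclitaxel 1). BPGM also rose after radiation (0.65 ± 0.12, adjusted p = 0.0109) and in the combination (0.96 ± 0.12, adjusted p = 0.000452). Of 7 pentose phosphate genes 1 was called, RPIA, the ribose phosphate isomerase, which rose in the combination (0.38 ± 0.10, adjusted p = 0.0223, lost without any 1 of 4 libraries) and with nab-paclitaxel (0.53 ± 0.10, adjusted p = 0.0141). Of 8 tested genes of gluconeogenesis and glycogen 2 rose and 1 fell in the combination, 1 rose and 1 fell with nab-paclitaxel, and 0 rose and 1 fell after radiation. With nab-paclitaxel the glycogen-branching enzyme GBE1 rose (0.32 ± 0.08, adjusted p = 0.0358, lost without any 1 of 8 libraries) and PCK2, the mitochondrial phosphoenolpyruvate carboxykinase, fell (-0.43 ± 0.10, adjusted p = 0.0222, lost without control 1, control 3 or nab-paclitaxel 2). PCK2 had 17.9, 15.3 and 15.6 FPKM in the combination, 25.2, 25.7 and 25.2 with nab-paclitaxel, 21.96, 20.9 and 19.1 after radiation and 37.1, 30.1 and 36.8 in control, so every treated library was below every control library.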

How the data were processed

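TFK1 mRNA was sequenced in 12 libraries, 3 in each of 4 groups taken from the labels. Library preparation used a SMARTer kit for mRNA, per the labels' protocols. Reads were placed on hg38, according to the submitters' processing notes. Aligner, counter and use of strand: not given in the sources used here. Genes that overlap on either strand are therefore uncertain. Values came as FPKM with gene lengths in a single table that the authors deposited. All 35 member lengths equalled the union of exons in GENCODE 29. Dividing out length showed whole multiples of 1 fragment for 100% of genes (within 0.05), and 14840283 to 17992242 fragments per library were recovered in this way. The per-million base was a size factor and not the library's own total (0.922 to 1.06 times it). 12 members have named pseudogenes (141 in all), which held at most 1.8% of the gene's fragments.

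limma 3.58.1 (R 4.3.3) was run on log2(FPKM + 1) of genes averaging 1 FPKM or more, with a trend of variance on level and 1 spread shared by the 4 groups (8 residual and 3.39 prior degrees of freedom). Tests were two-sided and adjusted by Benjamini-Hochberg over all 13609 genes within each of 6 contrasts. The labels call the replicates biological and say no more, so p-values measure the spread between these libraries. Same-numbered libraries of the combination and control deviated together (r = 0.233, 0.543 and 0.172 for numbers 1, 2 and 3), and the fit with the replicate number as a block is given there where it changes a call. No batch or day is tied to the numbers in the labels. The fit was also run on simulated data with known changes. No simulated library stood apart from its group, so that run checks the code and not the calls given here.

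The members and lists were chosen with earlier results of these data known. All 35 members are named, with the value in every library for those called in any comparison. Of each further list at most 3 called genes were picked, by smallest p for nab-paclitaxel against control, or the 2 highest in mean where 0 were called. Some of these are left out for length. Outside this rule the text also names KRT8, CDH1, C1QA, ACTA2, EPAS1, CREBBP and further called genes of pyruvate entry and the tricarboxylic acid cycle. Alternatives were another pseudocount (0.1), no filter, a filter of 5 FPKM, other scalings (size factors over tested genes, TPM, quantile), the replicate block, no trend, voom on the fragments, a fit of the 2 groups alone, protein-coding genes only, and leaving out each library. Leaving out the 3 libraries that stood apart was chosen after seeing the data. Promoters came from RefSeq, and tables and figures were made with Python 3.11.15, pandas 2.3.3 and matplotlib 3.10.9.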

Additional observations from a re-analysis of the deposited data

How the results depend on the processing

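No value of a member that was called changed sign under any alternative run, and a pseudocount of 0.1 changed 0 calls of members. Of members called for nab-paclitaxel against control, 13 in all, 7 were called after quantile normalization (PFKP, TPI1, GAPDH, ENO1, PGM1 and NDRG1 were lost) and 0 in the fit of the 2 groups alone. For radiation against control, 6 in all, the count was 2 with no filter, 2 with TPM scaling (HK2 and SLC2A3 in both), 3 with the replicate number as a block, 3 with only the 2 groups and 13 without the 3 libraries that stood apart. For the combination against control, 22 in all, it was 14 with TPM scaling and 18 with the replicate block. For the combination against radiation, 14 in all, it was 8 with no filter, 6 with TPM scaling, 8 after quantile normalization, 8 with the replicate block and 24 without the 3 libraries. For the combination against nab-paclitaxel, 2 in all, it was 1 with no filter, with TPM scaling, with the replicate block, with no trend and for protein-coding genes only, 0 with only the 2 groups and 5 without the 3 libraries. The replicate block gave 12 for nab-paclitaxel against control. Leaving out 1 library at a time gave 10 to 14, 2 to 8, 14 to 25, 5 to 18 and 1 to 2 members in the same 5 comparisons, the lowest without nab-paclitaxel 2, any radiation library, combination 3, combination 3 and each of 10 libraries in turn. The glycolytic minus other hypoxia median for nab-paclitaxel was 0.31, 0.051 after quantile normalization, and 0.11 to 0.40 with 1 library left out. For the combination it was 0.15, and -0.0063 to 0.29 with 1 library left out, and for radiation -0.08, and -0.23 to 0.048. The cause was not tested where none of these shows it by its construction.

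Calls among all tested genes moved by more than 1.5 times as follows. For nab-paclitaxel, 1200 in all, they were 579 with no filter, 771 with TPM scaling, 789 after quantile normalization, 701 with the replicate block, 8 with only the 2 groups and 1834 without the 3 libraries. For radiation, 807 in all, they were 531 with the block and 2945 without the 3 libraries. For the combination against control, 3111 in all, they were 2018 at a filter of 5 FPKM and 5038 without the 3 libraries. For the combination against radiation, 1055 in all, they were 577 with no filter, 606 with the block, 2502 with only the 2 groups and 4116 without the 3 libraries. For the combination against nab-paclitaxel, 533 in all, they were 276 with no filter, 306 with the block, 93 with only the 2 groups and 1292 without the 3 libraries. Leaving out 1 library at a time gave 520 to 1181, 320 to 1305, 1953 to 3933, 215 to 1883 and 176 to 732 in the same order, the lowest without control 3, radiation 2, combination 3, combination 3 and combination 3. The interaction gave 5 with no filter and 1 with TPM scaling. Low depth limits CA9 (13 fragments in all libraries) and ANKRD37 (925 fragments).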
